A study of Mus musculus with 2 samples.

Results

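Gjb1 and Cdh1 encode proteins that join hepatocytes to each other, and they were taken by name from a panel of 500 genes imaged in mouse liver, so 2 of 500 genes are described. Gjb1 encodes connexin 32, the main gap junction protein of hepatocytes. Gap junction channels let ions and small signalling molecules pass between neighbouring cells. Cdh1 encodes E-cadherin, the adherens junction protein that binds the same protein on the next epithelial cell and is tied to the actin skeleton by catenins. In adult mouse liver E-cadherin protein is known to be most abundant around portal veins, and connexin 32 is known from hepatocytes throughout the lobule. Glul, which encodes glutamine synthetase, marks the hepatocytes that border central veins and was used here to place cells along that axis.

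The transcripts were read by MERFISH, which decodes single RNA molecules in tissue by repeated imaging. The 2 samples are liver sections of 10 µm from mouse, labelled as replicates 1 and 2 of 1 group with the tag 2d. They were snap frozen, fixed on the slide and permeabilised. The labels give no strain, age, genotype or treatment, and whether 1 or 2 mice were used is not said. The design text of the series speaks of treated mice with liver metastases, which neither label mentions. Comparisons were therefore made between places and cell classes within sections. Their p-values measure only counting error and how far the 2 sections disagree, which may be technical.

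Segmentation gave 26037 cells in section 1 and 85929 in section 2, and their gene counts summed to 428386 and 475382. With at least 10 counts, 9209 and 16290 cells were kept, with medians of 27 and 15 counts, and the sections share 0 cell identifiers. Blank barcodes, which match no gene, took 0.910% and 0.390% of counts. In kept cells Gjb1 held 1320 and 3000 counts, above all 50 blanks in both sections. Cdh1 held 487 and 172 counts, above all 50 blanks in section 1 (highest 268) and below 1 of them in section 2 (410, with the next at 70). Cdh1 in section 2 thus lies within the range of the blanks.

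RefSeq's promoter table (GRCm38.p6) matched Gjb1 of the 2 genes, with 4 start sites on the plus strand of chromosome X. Cdh1 had no entry there. The counts of Gjb1 are given per gene, so they do not tell which start was used, and the outermost starts, the first and the last, are shown. Each is 250 bases before and 50 after the start, and capitals mark 3 motifs that were searched on both strands. The E-box was searched in the form CAGGTG only, and its other forms were not counted. The GC box, a site known for Sp1 family factors, reads GGGCGG. The TATA box, which sits close before many sharp start sites, was searched as TATAAA.
Gjb1 start 1, chrX:101376126-101376425: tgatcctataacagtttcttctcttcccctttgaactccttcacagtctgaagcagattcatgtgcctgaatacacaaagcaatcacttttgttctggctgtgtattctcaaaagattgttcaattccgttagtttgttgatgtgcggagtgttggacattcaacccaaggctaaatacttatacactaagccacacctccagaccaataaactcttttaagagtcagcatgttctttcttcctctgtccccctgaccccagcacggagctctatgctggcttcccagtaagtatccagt
Gjb1 start 4, chrX:101383482-101383781: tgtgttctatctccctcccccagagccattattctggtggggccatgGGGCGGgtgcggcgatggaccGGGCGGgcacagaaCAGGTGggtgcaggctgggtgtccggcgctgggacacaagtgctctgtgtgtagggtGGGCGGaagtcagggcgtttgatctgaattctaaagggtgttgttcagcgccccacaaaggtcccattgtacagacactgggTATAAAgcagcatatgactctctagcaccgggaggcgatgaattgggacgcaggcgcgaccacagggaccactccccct
Start 4 holds 3 GC boxes, which begin 203, 182 and 111 bases before the start. It also holds 1 CAGGTG at 168 bases and 1 TATA box at 29 bases, with no overlap among the marked motifs. Starts 1, 2 and 3 hold 0 matches to these 3 motifs. Of 32851 promoters of 300 bases, 20.2% hold CAGGTG, 35.7% the GC box and 13.6% the TATA box. CTTTG is the core of the motif bound by TCF factors of the Wnt pathway. It begins 222 and 175 bases before start 1, 34 bases after start 2 and 56 bases before start 4. Start 3 holds 0 matches to it, and 53.9% of promoters hold it. A match is a run of letters and not a measured binding site.

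Hepatocyte-like cells carried the highest Gjb1 level of the 7 classes tested, in both sections. There were 5176 such cells in section 1 and 10645 in section 2. Gjb1 stood at 43.5 counts per 10000 in section 1 (95% Poisson interval 41.0 to 46.2) and at 110 in section 2 (106 to 115), or 76.8 ± 47.1 (SD, n = 2). In the 6 other classes it lay between 7.45 and 19.2 per 10000 in section 1 and between 29.1 and 59.3 in section 2. No class of section 1 reached the lowest level of hepatocyte-like cells, and the same held in section 2 except that the interval of endothelial-like cells, from 6 counts, spanned it.

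The order of the other classes was not resolved. In section 1 Gjb1 was highest in B_lineage-like cells (19.2 per 10000, 17 counts), then monocyte_neutrophil-like (13.7), erythroid-like (10.5), macrophage_kupffer-like (9.62), endothelial-like (8.63) and stellate_mesenchymal-like cells (7.45). Neighbours in that order had overlapping intervals. In section 2 the order was B_lineage-like (59.3), macrophage_kupffer-like (58.7), endothelial-like (56.8), stellate_mesenchymal-like (45.0), monocyte_neutrophil-like (30.8) and erythroid-like cells (29.1), again with overlapping neighbours.

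**Figure D1:**
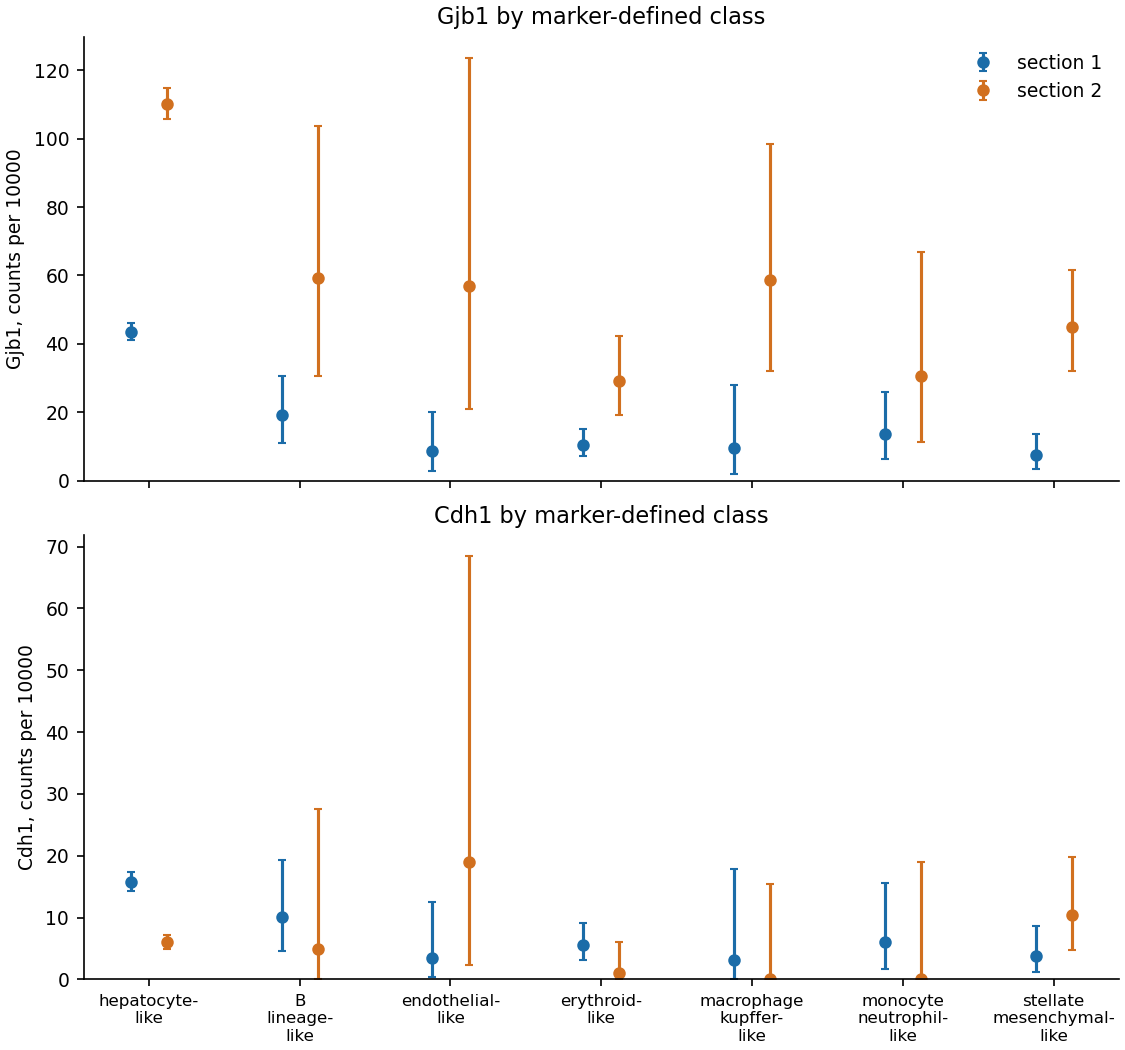
Gjb1 (top) and Cdh1 (bottom) in counts per 10000 gene counts for each marker-defined class; points are sums over cells of section 1 (blue) or section 2 (orange) and bars are 95% Poisson intervals. Hepatocyte-like Gjb1 stands at 43.5 and 110, above every other class of its section, while Cdh1 of section 2 rests on 0 to 9 counts outside hepatocyte-like cells.

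Across both sections Gjb1 was higher in hepatocyte-like cells than in the mean of the other classes by a log2 difference of 2.07 (SE 0.29, adjusted p = 1.4e-10 by the quasi-likelihood test of edgeR, Benjamini-Hochberg over all genes tested). The difference was 1.94 in section 1 and 1.29 in section 2. Of 343 genes 25.9% were called, 83 (24.2%) higher and 6 lower in hepatocyte-like cells. TMM scaling moved the median of all tested genes from 0.01 to 0.38, and without it Gjb1 was higher by 1.61 (adjusted p = 2.5e-05) and the calls split into 52 higher and 41 lower. Against single classes Gjb1 passed all 6 tests, with differences between 1.59 (B_lineage-like) and 2.43 (endothelial-like). The endothelial-like difference was 2.27 in section 1 and 0.95 in section 2, the macrophage_kupffer-like 2.12 and 0.90, and the stellate_mesenchymal-like 2.47 and 1.28. The share of genes called was 14.3% against stellate_mesenchymal-like, 17.5% against macrophage_kupffer-like, 19.5% against B_lineage-like, 19.8% against endothelial-like, 19.8% against monocyte_neutrophil-like and 32.7% against erythroid-like cells. Without the section as a block none of these 6 passed, while the difference from the mean still did (2.15, adjusted p = 0.011). The B_lineage-like difference also missed without TMM (1.05, adjusted p = 0.091).

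The Gjb1 counts in other classes came with those of genes made for the blood plasma. Apoh and Ambp, which encode a plasma glycoprotein and the precursor of alpha-1-microglobulin and were not used to name classes, stood in the other classes at 22.1% to 44.0% of their hepatocyte-like level in section 1. Gjb1 stood there at 17.1% to 44.0%. In section 2 the ranges were 32.3% to 92.3% for Apoh and Ambp and 26.4% to 53.8% for Gjb1. The summed 10 hepatocyte markers reached 696 to 1412 per 10000 in the other classes of section 1, against 2931 in hepatocyte-like cells, and 1097 to 2000 against 3393 in section 2. Their part in the Gjb1 levels of other classes was not tested.

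Cdh1 was also higher in hepatocyte-like cells of section 1, and its place in section 2 was unresolved. It stood at 15.8 per 10000 in section 1 (14.3 to 17.4) and 5.98 in section 2 (4.99 to 7.11), or 10.9 ± 6.93 (SD, n = 2). The other classes of section 1 lay between 3.21 and 10.1 per 10000. The intervals of B_lineage-like (4.64 to 19.2, 9 counts) and macrophage_kupffer-like cells (0.081 to 17.9, 1 count) reached past the hepatocyte-like level. That of monocyte_neutrophil-like cells (1.66 to 15.6, 4 counts) overlapped the hepatocyte-like interval. In section 2 the other classes held 0 to 9 counts each. Endothelial-like cells (18.9 per 10000, 2 counts) and stellate_mesenchymal-like cells (10.4, 9 counts) lay above the hepatocyte-like level there, with intervals that include it, and macrophage_kupffer-like and monocyte_neutrophil-like cells held 0.

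Over both sections Cdh1 was higher in hepatocyte-like cells by 1.59 (SE 0.42, edgeR adjusted p = 0.00098). Section 1 alone gave 1.58. In section 2 the value rests on the prior count, since 2 of the 6 other classes held 0 Cdh1 counts, and 2 of the other 4 lay above hepatocyte-like cells, with overlapping intervals. This call was lost with DESeq2 (1.75, adjusted p = 0.082), without the block (1.56, adjusted p = 0.11) and with at least 20 counts per cell (1.15, adjusted p = 0.19). Against single classes Cdh1 passed against erythroid-like (1.49, SE 0.56, edgeR adjusted p = 0.028) and macrophage_kupffer-like cells (3.24, SE 1.12, edgeR adjusted p = 0.028), and did not pass against the other 4 classes. The macrophage_kupffer-like sums held 1 count in section 1 and 0 in section 2, so that value is no exact fold, and section 1 alone gave 2.14. The erythroid-like call was lost under 5 of 8 alternatives and the macrophage_kupffer-like call under 5 of 6, among them DESeq2 (adjusted p = 0.23 and 0.20), no TMM (0.053 and 0.19), no block (0.36 and 0.25) and a minimum of 10 counts (0.068 and 0.12).

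Of the 10 junction and adhesion genes on the panel, 7 were tested between classes and 4 were called, all higher in hepatocyte-like cells. Over all 343 genes tested 24.2% were called higher. The list median was 1.59, which is the value of Cdh1 itself, against 0.38 over all genes tested. The list holds both members, so it gives no separate support for them. Besides the 2 members, the called genes were the tight junction genes Cldn1 and Cldn2. Cldn1, which encodes claudin 1, stood at 32.2 per 10000 in hepatocyte-like cells of section 1 and 24.1 of section 2, and was higher there by 1.60 (SE 0.34, edgeR adjusted p = 3.9e-05). Cldn2, whose protein forms cation channels between cells, stood at 7.66 and 8.31 and was higher by 3.53 (SE 0.64, edgeR adjusted p = 7.2e-07). The integrins Itgb1 and Itga2 and the leukocyte adhesion gene Vcam1 were not called, with -0.28, 1.03 and 0.09. Cdh5, the cadherin of vessels, helped to name endothelial-like cells and was left out of the test. Epcam and Krt19, on the marker list of bile duct cells, were left out as well.

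The 2 members differed in opposite directions between the sections. In hepatocyte-like cells Gjb1 was 2.53-fold higher in section 2 than in section 1 (95% interval 2.35 to 2.72, counting error only). Cdh1 was 2.64-fold higher in section 1 (2.16 to 3.25). The median gene of 329 with at least 20 counts in each section was at 0.716 of its section 1 level in section 2. Of these genes, 19 had a larger rise than Gjb1 and 40 a larger fall than Cdh1. The mean blank in hepatocyte-like cells also fell, from 1.27 per 10000 in section 1 to 0.468 in section 2. Its part in the Cdh1 difference was not tested. Apoh stood at 1.10-fold and Ambp at 0.981-fold, whereas the acute phase gene Hp was 1.84-fold and Igfbp2, which encodes a binding protein of insulin-like growth factors, 3.03-fold higher in section 2. With 1 section on each side this has no test.

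The gap in Gjb1 was seen at every depth per cell. Gjb1 in section 2 was 108, 109, 112 and 110 per 10000 in cells of 10 to 14, 15 to 24, 25 to 49 and at least 50 counts. In section 1 it was 27.1, 29.4, 35.4 and 48.9 in the same strata. At each depth section 2 thus lay above section 1, with intervals that did not overlap, and a trend of Gjb1 with depth was seen in section 1 and not in section 2. Cdh1 in section 1 was 8.24, 9.23, 15.4 and 17.2, and in section 2 4.55, 5.73, 5.61 and 12.7, where the last value rests on 21 counts. The Cdh1 intervals of the 2 sections overlapped in every stratum but that of 25 to 49 counts. Ambp ran upward with depth in both sections, from 124 to 192 and from 129 to 248. The part of depth in these values was not tested.

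Few hepatocyte-like cells showed either gene. Gjb1 was seen in 16.5% of them in section 1 and 19.1% in section 2, at medians of 34 and 17 counts per cell. Thinned to 10 counts per cell, these shares were 4.04% and 10.4%. In erythroid-like cells, which should lack the gene, the shares were 3.74% and 5.40%, or 1.20% and 3.00% after thinning, at medians of 28 and 16 counts, all below the hepatocyte-like shares. Cdh1 was seen in 6.92% and 1.15% of hepatocyte-like cells, thinned 1.45% and 0.564%, and in 2.14% and 0.200% of erythroid-like cells. The highest count in 1 hepatocyte-like cell was 7 for Gjb1 and 5 for Cdh1, both in section 1.

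Both genes were seen together in 130 hepatocyte-like cells of section 1 and 26 of section 2. If they were independent within 8 strata of depth, 107 and 30.3 would be expected, with common odds ratios of 1.49 and 0.800. The sections thus lay on opposite sides of independence, and no test was made over cells.

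Within section 1, Gjb1 also differed by place and by stain signal. Among 51 tiles of 500 µm with at least 1000 hepatocyte-like counts, Gjb1 ranged from 13.9 to 69.9 per 10000 with a median of 40.3, and its index of dispersion (1 for counting error alone) was 2.06. In section 2 it ranged from 72.8 to 200 with a median of 109 and an index of 1.09. Apoh and Ambp had indices of 1.92 and 4.81 in section 1 and 1.28 and 6.95 in section 2. Such an index also depends on a gene's count, so indices of different genes were not compared. Cdh1 ranged from 0 to 26.4 and from 0 to 30.0, with indices of 1.34 and 1.499.

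Cellbound1 is 1 of 3 boundary stains in the deposited cell tables. From the lowest to the highest of 3 equal bins of its signal per volume, Gjb1 in hepatocyte-like cells of section 1 was 59.0, 42.2 and 29.0 per 10000, with intervals that did not overlap. In section 2 it was 108, 114 and 108. By the other 2 stains Gjb1 of section 1 was highest in the lowest bin, at 53.5, 39.0 and 38.9 by Cellbound2 and 55.2, 39.1 and 35.0 by Cellbound3, and the intervals of the upper 2 bins overlapped. In section 2 it ran the other way, at 98.5, 114 and 116 by Cellbound2 and 101, 111 and 118 by Cellbound3. Apoh in section 2 also rose, at 125, 140 and 162 by Cellbound2 and 128, 142 and 158 by Cellbound3. Ambp there was 158, 171 and 192 by Cellbound2 and 170, 166 and 187 by Cellbound3. By Cellbound1, Ambp in section 1 was 210, 164 and 159, and Apoh stood at 137, 130 and 124. Cdh1 by Cellbound1 was 16.3, 13.6 and 17.4 in section 1 and 5.41, 5.70 and 6.77 in section 2, with overlapping intervals. The part of the stain, of imaging and of position in the Gjb1 values of section 1 was not tested.

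**Figure D2:**
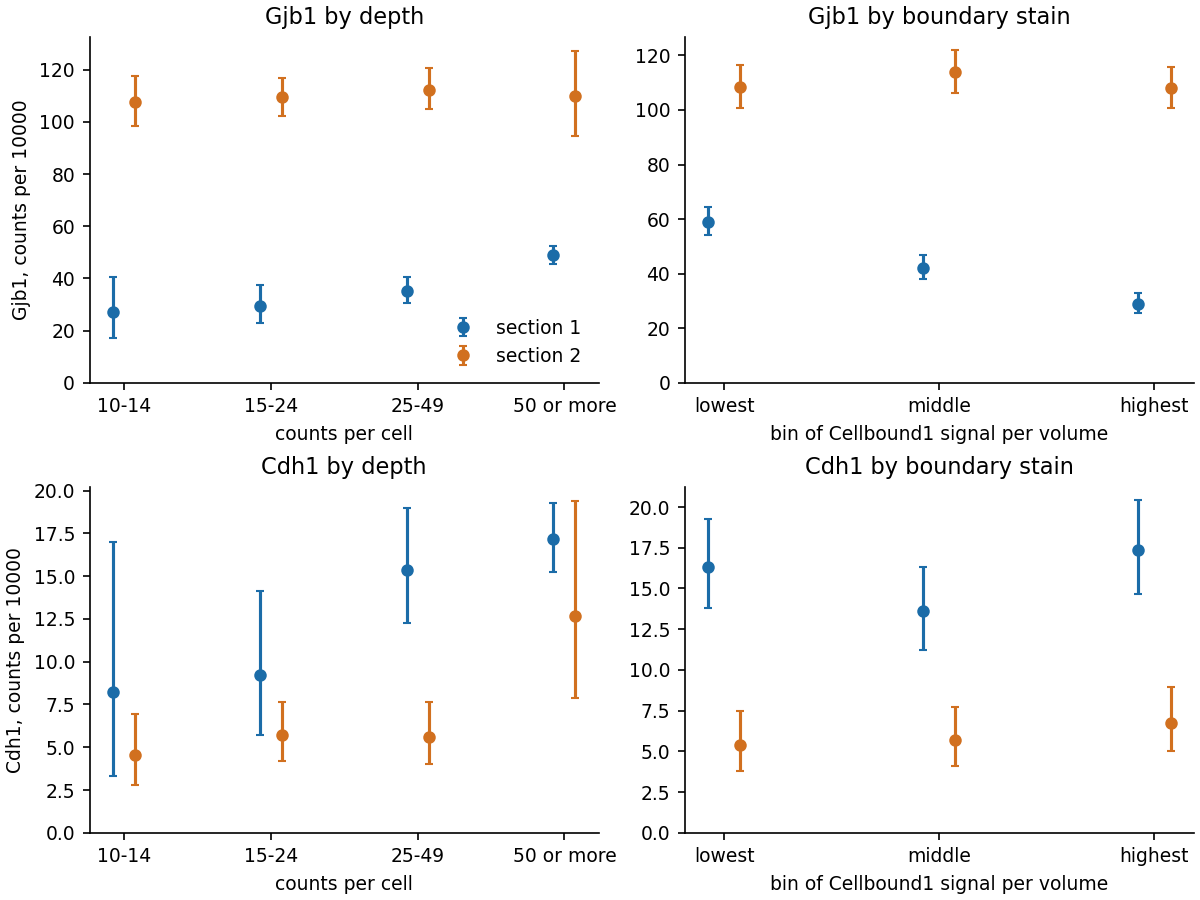
Gjb1 (top) and Cdh1 (bottom) in hepatocyte-like cells, in counts per 10000, by counts per cell (left) and by bin of the Cellbound1 signal per cell volume (right); points are sums over cells of section 1 (blue) or 2 (orange), bars 95% Poisson intervals. Gjb1 of section 1 runs from 27.1 to 48.9 with depth and from 59.0 down to 29.0 with stain, while in section 2 it stays between 108 and 114.

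The distance test asked whether either gene differs between hepatocyte-like cells near to and far from Glul-high cells. These are cells with at least 3 Glul counts, 160 in section 1 and 68 in section 2, of which 100 and 41 were hepatocyte-like. They held medians of 78 and 21 counts, against 33 and 17 in the other hepatocyte-like cells, so depth enters their choice. The other hepatocyte-like cells were split by distance into 3 bins of equal size, with limits at 92.3 and 189 µm in section 1 and 155 and 310 µm in section 2.

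Neither gene passed the test along this axis. Gjb1 was 41.5, 47.0 and 43.7 per 10000 from the near to the far bin in section 1 and 109, 114 and 108 in section 2. The near minus far difference was -0.04 (SE 0.09, 95% interval -0.22 to 0.14, edgeR adjusted p = 0.93). Cdh1 was 15.8, 15.8 and 16.4 in section 1 and 6.34, 5.47 and 6.22 in section 2, with a difference of -0.04 (SE 0.22, -0.46 to 0.39, edgeR adjusted p = 0.97). The intervals leave room for up to 1.17-fold lower or 1.10-fold higher levels near Glul-high cells for Gjb1, and up to 1.38-fold lower or 1.31-fold higher for Cdh1.

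Few other genes moved on this axis either. Of 358 genes 0.279% were called, which is Cyp2f2 alone, a periportal cytochrome P450, at -0.69 (SE 0.16, edgeR adjusted p = 0.0052). The pericentral genes Cyp2e1 and Gulo were higher near Glul-high cells by 0.41 and 0.32 and did not pass (edgeR adjusted p = 0.094 and 0.098), and Gstm1 stood at -0.15. The periportal genes Pck1, Ass1 and G6pc stood at -0.10, -0.04 and -0.20. The medians of the pericentral and periportal lists were 0.38 over 12 genes and -0.29 over 8, against -0.03 over all genes tested, and 0 and 1 of them passed. Of 8 junction genes and of 10 Wnt pathway genes, 0 passed the edgeR test, with 1 and 2 at an unadjusted p under 0.05. Over all genes 31 had such a p with edgeR and 7 with DESeq2, and the latter called 0.

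By fixed distances neither member showed an order. Within 25 µm of a Glul-high cell Gjb1 was 43.6 per 10000 (34.6 to 54.3) in section 1 and 123 (93.7 to 158) in section 2, and at 200 to 400 µm it was 45.1 and 114. Cdh1 was 15.3 and 4.09 within 25 µm, the latter from 2 counts, and 17.2 and 6.25 at 200 to 400 µm. Cyp2f2 in section 2 went from 4.09 within 25 µm to 21.8 at 200 to 400 µm. In section 1 it was 37.1 within 25 µm, 20.9 at 50 to 100 µm and 39.2 at 200 to 400 µm, with no order by distance. Cyp2e1 of section 1 was 52.9, 44.6, 46.2, 38.6 and 33.1 from within 25 µm to 200 to 400 µm. In section 2 it was 77.7, 54.8, 45.3, 31.7 and 29.7. Beyond 400 µm, Cyp2e1 was 38.1 in section 1 and 34.6 in section 2, and Cyp2f2 26.0 and 16.9. Gjb1 was 27.7 (15.8 to 45.0, 16 counts) and 105 there, and Cdh1 10.4 and 6.10. In hepatocyte-like cells that were Glul-high themselves, Gjb1 was 33.2 (23.5 to 45.6) in section 1 against 44.0 in the others, and 97.3 (53.2 to 163) in section 2 against 110. Cdh1 was 11.4 (6.05 to 19.4) against 16.0 in section 1, and 0 of 1439 counts in section 2, which allows up to 25.6 per 10000.

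**Figure D3:**
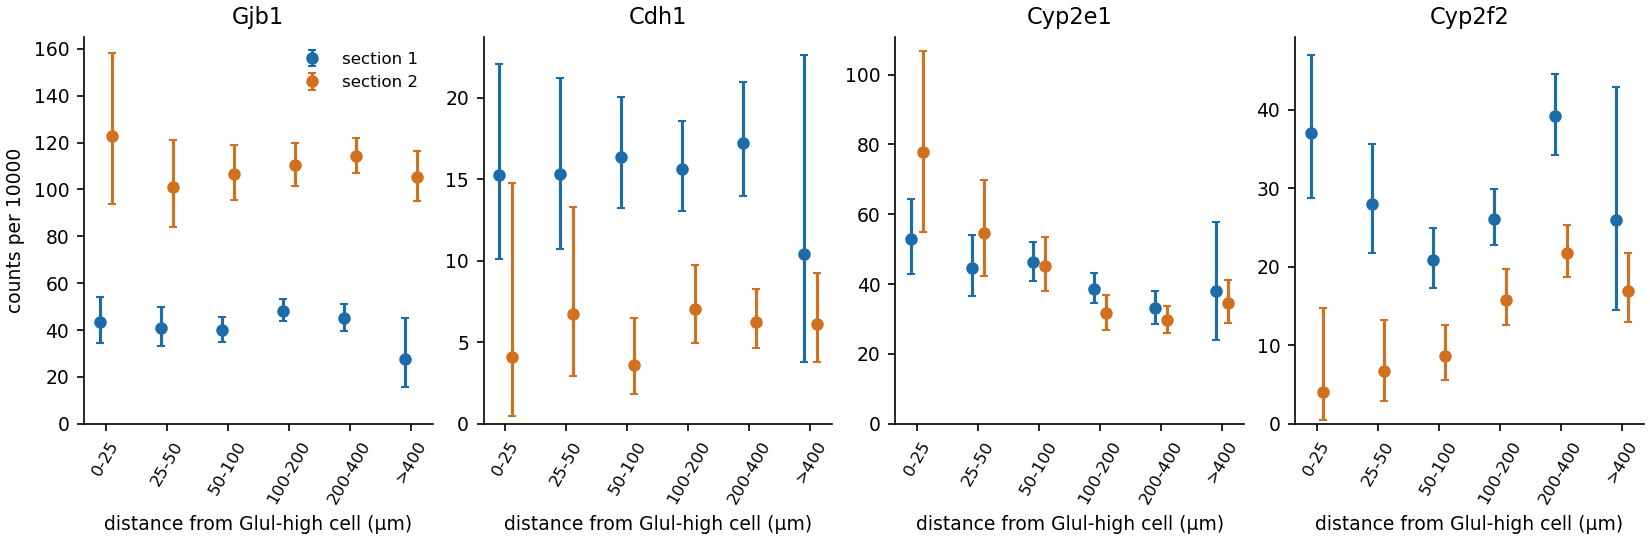
Levels in hepatocyte-like cells, in counts per 10000, by distance in µm from the nearest Glul-high cell for Gjb1, Cdh1 and the zoned genes Cyp2e1 and Cyp2f2; points are sums over cells of section 1 (blue) or 2 (orange), bars 95% Poisson intervals. Gjb1 and Cdh1 show no order with distance, while Cyp2f2 in section 2 goes from 4.09 within 25 µm to 21.8 at 200 to 400 µm.

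A landmark score gave an axis with more called genes. It sets Cyp2e1 and Gulo against Pck1, Ass1 and Hsd17b13 in hepatocyte-like neighbours within 50 µm, and 5.74% of 331 genes were called along it. Cyp2f2 was at -2.49 and Glul at 1.06 on the pericentral side, both called. Gjb1 stood at -0.21 (SE 0.12, 95% interval -0.46 to 0.03, edgeR adjusted p = 0.36). The sections alone gave -0.31 and -0.15. Cdh1 stood at -0.36 (SE 0.22, -0.82 to 0.11, edgeR adjusted p = 0.43). The sections alone gave -0.57 and 0.19. Distance from Cyp2f2-positive cells, turned to run the same way, called 2.23% of 358 genes and gave 0.00 for Gjb1 (-0.21 to 0.21) and -0.37 for Cdh1 (SE 0.20, -0.76 to 0.03, edgeR adjusted p = 0.42). On this axis Cdh1 stood at -0.26 and -0.45 in the 2 sections. These intervals leave room for Cdh1 to be up to 1.76-fold higher at the portal end by the score and 1.69-fold by Cyp2f2, and neither interval excludes 0.

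Gjb1 and Cdh1 act at the contact between cells. The neighbour test compared hepatocyte-like cells by the share of kept cells within 50 µm that were hepatocyte-like. Cells with at least 5 kept cells in that radius were split by this share into 3 bins of equal size. Gjb1 was 36.1, 41.3 and 42.4 per 10000 from the lowest to the highest share in section 1 and 107, 111 and 113 in section 2. It was higher at the highest than at the lowest share by 0.28 (SE 0.09, edgeR adjusted p = 0.018). In that test, which kept the class markers, 6.53% of 352 genes were called, 13 higher and 10 lower. In the sections' own totals the difference was 0.23 and 0.07. The call was lost in 9 of 10 alternatives. Without TMM, which moved the median of all genes from -0.10 to 0.03, Gjb1 stood at 0.13 (adjusted p = 0.51).

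Some other liver genes went the same way as Gjb1 in that test, and others did not. Hp was higher at the highest share of hepatocyte-like neighbours by 0.31 (SE 0.03, edgeR adjusted p = 6.9e-22). Hp is among the markers that named the hepatocyte-like cells and neighbours, so its rise was partly built in and gives no separate support. Apoh, higher by 0.29, and Ambp, higher by 0.25, are not markers. Glul was lower, at -0.41 (edgeR adjusted p = 5.2e-05), and Cyp2e1 stood at -0.18 and was not called. The proliferation gene Mki67 was lower, at -0.68. Summed erythroid markers in these hepatocyte-like cells were 141, 119 and 82.8 per 10000 from the lowest to the highest share in section 1. In section 2 they were 54.9, 45.1 and 37.8. The summed hepatocyte markers, which helped choose the cells, were 2715, 2919 and 3052 and 3290, 3383 and 3497. Their part in the Gjb1 difference was not tested. Of 8 junction genes tested only Gjb1 was called. Cdh1 was 16.7, 13.6 and 16.6 in section 1 and 7.02, 3.52 and 7.70 in section 2, with a difference of 0.16 (SE 0.22, -0.27 to 0.59, edgeR adjusted p = 0.88).

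The share of transcripts near cell edges was compared next. No cell outlines were used here, so each transcript's distance from the cell centre was scaled to the size of the box around the cell, and transcripts of hepatocyte-like cells were split into an inner, a middle and an outer ring with equal numbers of transcripts. Of the Gjb1 transcripts of section 1, 36.2% lay in the inner, 34.2% in the middle and 29.6% in the outer ring, of 1120. In section 2 these shares were 34.9%, 32.7% and 32.4% of 2358. The outer share of section 1 (26.9% to 32.3%) lay below that of Apoh (36.5%) and Ambp (36.2%), genes picked after their values were seen, and in section 2 (30.6% to 34.4%) its interval included that of Apoh (34.1%) and lay below that of Ambp (35.3%). Among genes with at least 100 transcripts, 115 of 234 had a higher outer share than Gjb1 in section 1 and 68 of 173 in section 2. For Cdh1 these were 95 and 41. Cdh1 had 36.0%, 32.5% and 31.5% of 406 in section 1 and 31.2%, 35.2% and 33.6% of 128 in section 2, with intervals that include equal shares.

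In the edgeR test neither gene passed between the outer and the inner ring, where 11.9% of 362 genes were called. Gjb1 stood at 0.11 (SE 0.10, -0.11 to 0.33, adjusted p = 0.50) and Cdh1 at 0.21 (SE 0.17, -0.16 to 0.59, adjusted p = 0.44). The sign rests on scaling. TMM moved the median of all genes from -0.27 to 0.02, and without it Gjb1 stood at -0.18 (adjusted p = 0.13) and Cdh1 at -0.10 (adjusted p = 0.77). Relative to the median gene, Gjb1 was at 0.08 with TMM and 0.09 without, and Cdh1 at 0.19 and 0.17. Of 8 junction genes Itga2 was called, higher in the outer ring by 1.14 (SE 0.27, edgeR adjusted p = 0.019), and Itga2 held 145 and 41 counts in hepatocyte-like cells.

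**Figure D4:**
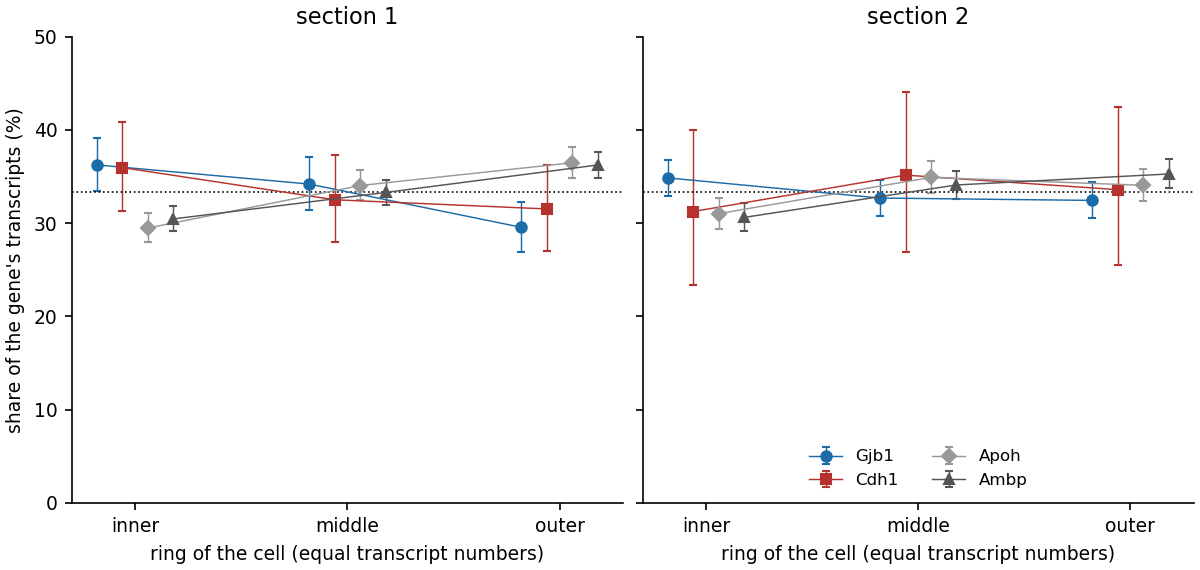
Share of each gene's transcripts (%) in the inner, middle and outer ring of hepatocyte-like cells in section 1 (left) and section 2 (right); bars are exact 95% binomial intervals and the dotted line marks equal shares. Gjb1 has 29.6% in the outer ring of section 1, below Apoh (36.5%) and Ambp (36.2%), and 32.4% in section 2, and Cdh1's intervals include the dotted line throughout.

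Transcripts also carry 1 of 7 imaging planes. In section 1, 51.9% of Gjb1 transcripts in hepatocyte-like cells lay in the first plane, against 39.7% of all transcripts, 46.9% of Apoh and 46.1% of Ambp. In section 2 it was 31.8% against 27.8%, with 30.2% of Apoh and 33.4% of Ambp. Cdh1 stood at 43.3% and 31.2%.

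Over the 7 classes in both sections (14 points, log2 of counts per 10000 plus 1), the genes most like Gjb1 were Hsd17b13 (Pearson r 0.92), Igfbp2 (0.91), Fgl1 (0.88), Hp (0.84) and Gfer (0.83), of 214 compared. The points share sections and depth, and with section means removed r was 0.83 for Hsd17b13, followed by F2 (0.83), Ambp (0.81), Apoh (0.78) and Fga (0.76). Most like Cdh1 were Abcb11, the bile salt export pump of hepatocytes (0.73), the zinc transporter Slc39a5 (0.59), Slc37a4 (0.57), Dusp1 (0.55) and Slfn1 (0.55). With section means removed they were Abcb11 (0.78), Acadvl (0.67), Slc39a5 (0.65), Sod2 (0.62) and Sox9 (0.61). Gjb1 and Cdh1 correlated at 0.07, and at 0.55 with section means removed. Hp, F2 and Fga are hepatocyte markers that helped to name the classes, so their profiles over classes were partly set by that choice. Sox9 is on the marker list of bile duct cells. These values describe the 14 points, and no test was made.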

How the data were processed

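MERFISH counts were read from 2 mouse liver sections, replicates 1 and 2 of 1 group. The deposited tables hold raw counts of decoded transcripts, with cells in rows and 500 genes and 50 blanks in columns, per the file headers. They also hold a cell volume and a stain signal per cell, deposited with no unit, and transcript positions, for which µm was assumed from the cell sizes. The tools of decoding and segmentation: not given in the sources used here.

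Kept cells held 10 or more counts in a volume of 50 or more, and no doublet caller was run. Classes came from marker counts: a cell took a blood, vessel or stromal class with at least 2 counts of its markers making up at least 10% of its counts, otherwise the hepatocyte-like class with at least 3 counts of at least 2 markers and 15%. These thresholds were set after class sizes had been seen. Classes with under 50 cells in a section or under 3 markers were not tested. Neither member is a marker.

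Counts were summed over cells per section and class, distance bin, neighbour bin or ring. The test was that of edgeR 4.0.16 (quasi-likelihood with TMM, blocked by section, on genes with 50 or more counts over all sums) in R 4.3.3, with Benjamini-Hochberg adjustment over all genes tested. TMM corrects library totals for a few genes that take a large share of counts. The block pairs sums that come from 1 section. The tests were run first on simulated data. Markers were left out of the class test only, and Glul out of the distance test. Intervals on levels are exact Poisson, and those on shares exact Clopper-Pearson, both at 95% and covering counting error only. Alternatives were DESeq2 1.42.0, no TMM, other filters, axes, radii, ring rules and marker rules, no block, and each section alone. The named genes were the 2 members, junction and adhesion genes of a list of 48, of which the panel holds 10, axis genes by highest count, and the 5 genes most like each member. Apoh and Ambp, Hp, Mki67, Glul and Cyp2e1 beside the neighbour bins, and the named genes of the other axes were picked after values had been seen. The members and lists were chosen with earlier results of these data known.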

Additional observations from a re-analysis of the deposited data

Results flagged for a closer look

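Transcripts that lay in no segmented cell, and counts in cells of fewer than 10 counts, entered no comparison, and both hold the members well above the limit of 3 counts. For Gjb1, 904 of 2285 decoded transcripts of section 1 (39.6%) and 2496 of 6944 of section 2 (35.9%) lay in no cell, against 40.1% and 34.4% of all genes. For Cdh1 these were 341 of 854 (39.9%) and 141 of 377 (37.4%). The left-out cells of section 1 held 61 Gjb1 counts, or 15.9 per 10000 (12.2 to 20.5), and 26 Cdh1 counts. Those of section 2 held 1448 Gjb1 counts, or 82.5 per 10000 (78.3 to 86.8), and 64 Cdh1 counts, or 3.64 (2.81 to 4.65).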

How the results depend on the processing

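Gjb1 passed between classes under all 8 tested alternatives (1.61 to 2.47) and Cdh1 under 5 of 8. The section was the replicate block, and without it 38 genes were called between classes, with Cdh1 at 1.56, 0 by distance, 0 by ring and 0 by neighbours, with Gjb1 at 0.27. DESeq2 called 51, 0, 19 and 10, with Cdh1 at 1.75 between classes and Gjb1 at 0.30 by neighbours. With at least 20 counts per cell the counts were 44, 0, 80 and 10, with Cdh1 at 1.15 between classes and -0.0649 by neighbours and Gjb1 at 0.22 by neighbours. A minimum of 10 counts over all sums left 0 by distance and 0 by ring, with distance values of 0.0151 for Gjb1 and 0.00747 for Cdh1, and Gjb1 at 0.26 by neighbours. The stricter markers gave 0 by distance (0.0489 and 0.0147) and 10 by neighbours (Gjb1 0.22), and ring values of -0.0288 and -0.0205. Without TMM 99 genes were called by ring (-0.18 and -0.10), and Gjb1 stood at 0.13 by neighbours. With volume as the offset, distance called 16 (0.28 and 0.31) and neighbours 7 (Gjb1 0.32).

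By distance 14 of 16 alternatives moved the count of 1. Glul of at least 2 called 4 (Cdh1 0.0354) and of at least 5 called 0 (0.16 and 0.22). Only hepatocyte-like Glul-high cells called 8 (Gjb1 0.14) and paired Glul-high cells 0 (Gjb1 0.17). Up to 50 against over 100 µm called 4, cells within 500 µm 2, the landmark score 19 and distance from Cyp2f2-positive cells 8 (Gjb1 0.00041). Thinned cells gave 0.0436 and 0.0240. No alternative called a member by distance or by ring. Rank within the cell called 65 genes by ring, and distance in µm turned Gjb1 to -0.0384. By neighbours a radius of 30 µm called 15 (Gjb1 0.18), and 100 µm put Gjb1 at 0.20. Where 0 genes were called, those with an unadjusted p under 0.05 numbered 1 by distance, 2 by ring and 0 by neighbours without the block, 7 with DESeq2, 22 with at least 20 counts per cell, 37 by distance and 116 by ring at a minimum of 10 counts, 25 with stricter markers, 20 with Glul of at least 5 and 44 with paired Glul-high cells.

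With 1 section left out there is no test. Gjb1 then ran from 1.29 to 1.95 between classes, -0.07 to 0.01 by distance, -0.29 to -0.10 by ring and 0.0727 to 0.23 by neighbours. Cdh1 ran from 1.15 to 1.59, -0.0458 to 0.0270, -0.19 to 0.10 and -0.0069 to 0.13. Its section 2 value between classes rests on the prior count, since 2 classes held 0 counts. The cause of these changes was not tested. Cdh1 in section 2, with 128 hepatocyte-like counts, limits every comparison of that gene.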

Other observations

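Cells that took no class entered no test. They made up 24.9% and 25.7% of the kept cells of the sections, at medians of 17 and 12 counts. They held Gjb1 at 18.7 per 10000 (15.5 to 22.3) in section 1 and 89.6 (82.1 to 97.5) in section 2, or 43.0% and 81.3% of the hepatocyte-like level. Apoh stood in them at 54.4% and 87.4% and Ambp at 42.5% and 84.3% of theirs. Cdh1 stood at 6.29 (4.51 to 8.53) and 5.03 (3.39 to 7.18), or 39.8% and 84.2%.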
